A study of Mus musculus with 5 samples.

Results

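Distal convoluted tubule cells were taken from 5 Drop-seq libraries of mouse kidney by the UMIs of a transporter gene and a calcium-binding protein gene. A cell was a barcode with at least 200 detected genes, and it was counted as a distal convoluted tubule cell when Slc12a3 and Pvalb together had at least 3 UMIs and made up at least 0.4% of its UMIs. A UMI is a unique molecular identifier, which marks 1 captured mRNA molecule. This rule found 268 cells among 12121 cells. The kidneys came from wild-type mice of a strain written C56BL/6N in the labels, which name no treatment, age or number of animals. After perfusion with cold buffer, tissue was digested with a cold-active protease, and the cells were fixed in methanol and frozen before the Drop-seq run. The groups were outer medulla (1 library, 35 of 2428 cells), cortex (1 library, 92 of 3072 cells), inner medulla (1 library, 1 of 898 cells) and whole kidney (2 libraries, 71 of 3305 cells in replicate 2 and 69 of 2418 cells in replicate 1). The single cell of inner medulla entered no comparison. All groups shared the strain, the genotype and the digestion.

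The distal convoluted tubule is the short stretch of nephron between the thick ascending limb of the loop of Henle and the connecting tubule. Its cells reabsorb sodium chloride through the thiazide-sensitive cotransporter NCC, the product of Slc12a3, under the control of WNK kinases, and they set how much magnesium is lost in urine. In mouse, the early stretch is known for parvalbumin, the product of Pvalb, and the late stretch for the calcium-handling proteins calbindin (Calb1) and the sodium-calcium exchanger (Slc8a1), which it shares with the connecting tubule.

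Slc12a3 and Pvalb chose the cells, so their levels are a description. Counts were summed over the cells of a class in a library and divided by the class total, which gives counts per 1000000 UMIs (CPM). Slc12a3 had 4153, 3108, 3555 and 3179 CPM in distal convoluted tubule cells of outer medulla, cortex, whole kidney 2 and whole kidney 1, against 42.8, 60.1, 49.0 and 69.4 CPM in all other cells, in the same order. Pvalb had 3767, 4209, 3898 and 4854 CPM in distal convoluted tubule cells, against 24.8, 32.7, 38.1 and 51.5 CPM in all other cells of these libraries. Sfrp1, a secreted Wnt inhibitor that was not part of the rule, had 1932, 2482, 2565 and 4091 CPM in distal convoluted tubule cells, against 93.6, 110.1, 130.1 and 178 CPM in all other cells. For Slc12a3 and Pvalb the rule itself set the groups apart. For Sfrp1 the groups did not overlap, but the share of all genes without overlap was not counted.

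Promoter sequence is shown for both genes of the rule, for Umod, which was high in these cells while Slc12a1 was near 0, and for Klk1, which differed most between late and early cells. Each run is the 250 bases before the start of the gene on its own strand, from RefSeq, build GRCm38.p6, and capitals mark matches to the motifs named after it. Of 17 genes looked up, 11 were listed there.
Slc12a3 (chr8:94328958-94329207, plus strand): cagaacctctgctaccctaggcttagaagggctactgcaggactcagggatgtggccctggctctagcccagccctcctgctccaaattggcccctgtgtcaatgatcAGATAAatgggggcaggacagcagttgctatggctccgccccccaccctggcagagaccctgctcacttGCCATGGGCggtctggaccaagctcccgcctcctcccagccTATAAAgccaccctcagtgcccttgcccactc
Pvalb (chr15:78206401-78206650, minus strand, 1 of 2 listed starts): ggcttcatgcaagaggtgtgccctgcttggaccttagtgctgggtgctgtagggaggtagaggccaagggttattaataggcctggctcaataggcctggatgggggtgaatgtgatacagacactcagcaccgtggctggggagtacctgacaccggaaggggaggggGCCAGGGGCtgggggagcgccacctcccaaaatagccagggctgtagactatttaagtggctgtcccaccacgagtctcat
Umod (chr7:119479263-119479512, minus strand): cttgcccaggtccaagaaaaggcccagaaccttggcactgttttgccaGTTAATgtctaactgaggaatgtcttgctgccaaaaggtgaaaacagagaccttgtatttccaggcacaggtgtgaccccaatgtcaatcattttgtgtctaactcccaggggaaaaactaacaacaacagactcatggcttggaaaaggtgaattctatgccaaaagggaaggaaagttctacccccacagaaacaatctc
Klk1 (chr7:44225110-44225359, plus strand): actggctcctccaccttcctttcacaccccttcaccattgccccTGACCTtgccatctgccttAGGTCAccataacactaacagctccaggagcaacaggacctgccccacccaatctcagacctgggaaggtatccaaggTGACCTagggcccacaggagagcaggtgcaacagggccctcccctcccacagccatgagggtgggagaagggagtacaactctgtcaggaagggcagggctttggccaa
The letters searched, on either strand, were those of the TATA box and of core sites known for GATA factors, nuclear receptors, homeobox factors, AP-2 and HNF1, spelled out with each match. The Slc12a3 window held TATAAA 32 bases before the start, as 12.4% of the 32851 promoter windows in the table do on some position, GCCNNNGGC 73 bases before it (13.7% of windows) and AGATAA 142 bases before it (9.99%). The Pvalb window held GCCNNNGGC 81 bases before the start. The Umod window held GTTAAT 202 bases before the start (6.43% of windows). The Klk1 window held AGGTCA or its reverse complement at 206, 187 and 109 bases before the start (14.0% of windows hold at least 1 match). No match of the homeobox letters TAATTA (4.84% of windows) was in these 4 windows. A match describes letters in a window and is not a binding site.

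Markers of other kidney cells were checked in distal convoluted tubule cells. Slc12a1, the cotransporter of the thick ascending limb, was seen in 5 of 268 cells with 8 UMIs in all, and 4 of these UMIs came from 1 cell of outer medulla. Aqp2, the water channel of principal cells, was seen in 5 cells with 5 UMIs. The intercalated cell genes Slc4a1, Slc26a4 and Atp6v1g3 had 0 UMIs, as did the macrophage genes C1qa, C1qb and Tyrobp, and the endothelial genes Emcn, Pecam1 and Kdr were seen in 1 cell. The proximal tubule genes Slc34a1 and Lrp2 were seen in 38 of 268 cells. All 15 distal convoluted tubule markers were listed, 2 of them at 0 in outer medulla, and their summed level was between 1.83% and 2.14% of UMIs per library. Slc12a3 and Pvalb are among these markers, so part of this level was set by the rule. Thick ascending limb cells, a class defined below, had 0.535% to 1.14% on the same list in the 4 libraries. The summed proximal tubule markers (14 of 14 listed, 1 to 4 of them at 0 per library) made up 0.789% to 0.971% of UMIs. Read against barcodes with under 100 genes, which hold mostly free RNA, this allows at most 8.67% to 11.4% free RNA in these cells. The 10 thick ascending limb markers, Umod among them, summed to 0.517% to 0.706% of UMIs in distal convoluted tubule cells, against 0.0484% to 0.184% in all other cells of the 4 libraries, and 2 to 4 of them were at 0. The 8 connecting tubule markers, Calb1, S100g and Klk1 among them, summed to 0.969% to 1.45% in distal convoluted tubule cells, against 0.225% to 0.828% in all other cells, and 3 of them were at 0. The 10 principal cell markers, Aqp2 among them, are given for outer medulla, cortex, whole kidney 2 and whole kidney 1. They summed to 0.0869%, 0.124%, 0.0929% and 0.170% in distal convoluted tubule cells, against 0.318%, 0.112%, 0.0805% and 0.111% in all other cells. The 11 intercalated cell markers summed to 0.0170% to 0.0343%, against 0.0365% to 0.0494% in all other cells. The 10 macrophage and myeloid markers had 3 UMIs in each of the 4 libraries. The part of these cell types in the results was not tested.

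The cells had a median of 515, 715, 534 and 517 UMIs in outer medulla, cortex, whole kidney 2 and whole kidney 1, against 466, 510, 501 and 480 UMIs in all other cells, and 20707, 78175, 49508 and 47180 UMIs in all. Outer medulla therefore gave the least precise values. Of the 268 barcodes, 1 also occurred among the cells of another library. The rule's edge was not sharp: with 4 libraries pooled, Sfrp1 had 2138 CPM in the 74 cells just inside at 3 UMIs, 1945 CPM in the 148 cells outside with 2 UMIs, 1925 CPM in the 47 cells with 3 or more UMIs but under 0.4%, and 71.4 CPM in the 10426 cells with none. The 195 cells just outside were 1.78% of the other cells of these 4 libraries.

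The share of distal convoluted tubule cells was 1.44% (1.01% to 2.0%) in outer medulla and 2.99% (2.42% to 3.66%) in cortex, with exact Clopper-Pearson 95% intervals that cover counting error only. The ratio of outer medulla to cortex was 0.481 (0.316 to 0.718). In whole kidney the share was 2.15% (1.68% to 2.70%) in replicate 2 and 2.85% (2.23% to 3.6%) in replicate 1. Inner medulla had 1 of 898 cells, or 0.111% (0.00282% to 0.619%). With 1 library per region, the difference between outer medulla and cortex has no replicate check, and the whole kidney libraries lay between these regions.

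**Figure D1:**
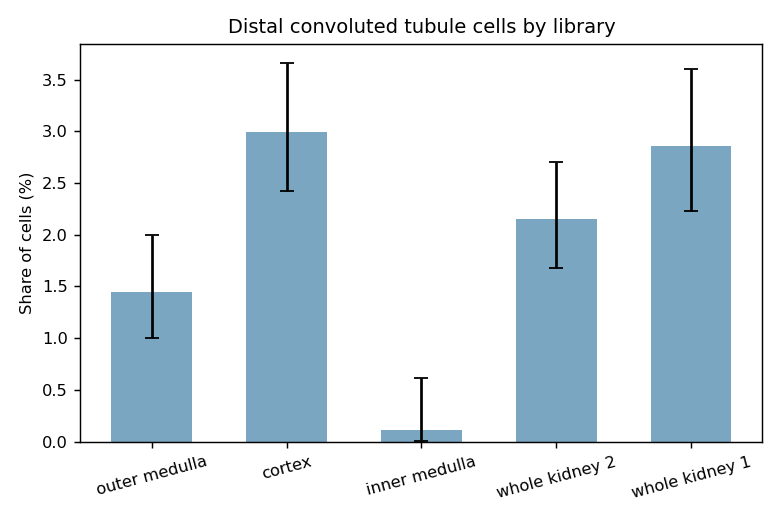
Share of cells that met the rule for distal convoluted tubule cells (vertical axis, %) in each library (horizontal axis). Bars are shares and lines are exact 95% binomial intervals. The outer medulla bar at 1.44% lies below the cortex bar at 2.99%, and inner medulla is near 0.

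Set against all other cells, distal convoluted tubule cells were high in 11 of 14 tested genes of sodium chloride transport, 5 of 9 of magnesium handling and 9 of 13 of secreted proteins, beside 6.73% of all genes. With cells chosen by Slc12a3 alone these counts were 9 of 14, 3 of 8 and 7 of 13, beside 146 of 6761 genes. Sums per library were compared with edgeR's quasi-likelihood test with the library as a block, over 4 libraries and 7282 genes. At an adjusted p under 0.05, 1938 genes passed (26.6% of those tested), of which 490 genes were higher (6.73%) and 1448 genes were lower (19.9%). The direction of small changes depends on scaling: with library totals in place of TMM factors, 935 genes were higher and 828 were lower, and the median over all genes moved by 0.50 on the log2 scale. With DESeq2's size factors it moved by 0.11. The TMM factors also make rises smaller, and falls larger, than ratios of CPM. With the number of animals not given, the p-values measure only the spread between these libraries, which may be technical.

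The genes with the largest log2 fold changes among those past the threshold included Cwh43, Uroc1 (a histidine-degrading enzyme), Vegfd (a lymphatic growth factor), Abca13, Rab27a (a secretion GTPase), Sfrp1, Sult1a1, Ptgfr (the prostaglandin F receptor) and Defb1 (an epithelial beta-defensin). Cwh43 had 386, 166, 283 and 339 CPM in distal convoluted tubule cells of outer medulla, cortex, whole kidney 2 and whole kidney 1, against 7.51, 7.26, 9.52 and 7.28 CPM in all other cells (log2 fold change 4.56 ± 0.42 (SE), adjusted p = 2.38e-25). Sfrp1 had a log2 fold change of 3.90 ± 0.16, adjusted p = 1.75e-133, and it was higher in 4 of 4 libraries. Defb1, at 9321, 11154, 10604 and 12738 CPM in distal convoluted tubule cells and 509, 589, 503 and 775 CPM in all other cells, was the most abundant of them (log2 fold change 3.68 ± 0.15 (SE), adjusted p = 7.56e-129). Wfdc15b, a small whey acidic protein family member, and Ckb, brain-type creatine kinase, followed with log2 fold changes of 3.68 ± 0.15 and 3.57 ± 0.23 (SE). The other genes of this direction named by the rule were Ppp1r1a, Mfsd4a, Isyna1 and Upp1. Among the genes that were lower, 11 of the 15 named had 0 UMIs in distal convoluted tubule cells: G6pc, Mettl7b, Atp6v1g3, Slc18a1, Aqp1, Upb1, Acmsd, Hsd11b1, Slc23a1, Car15 and Ugt2b37. G6pc, a gluconeogenic enzyme of the proximal tubule, was at least 17.7-fold lower when 3 counts over the group are taken as the floor. Hlf, Ugt2b38, Man1a and Slc16a12 completed the named set, with log2 fold changes between -5.96 and -5.41.

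In the sodium chloride and WNK list, 11 of 14 tested genes rose and 1 fell, of 18 listed and 16 measured at 20 CPM or more. The list median was 2.69 on the log2 scale, beside -0.39 over all genes tested. Wnk1, whose kidney-specific form is known from this segment, had 1690.2, 1625, 2363 and 1526 CPM in distal convoluted tubule cells, against 82.1, 156, 124 and 153 CPM in all other cells (log2 fold change 3.26 ± 0.16 (SE), adjusted p = 1.28e-89). Wnk4, the kinase mutated in familial hyperkalaemic hypertension, had 289.8, 217, 303 and 233 CPM in distal convoluted tubule cells, against 28.3, 25.4, 19.7 and 27.4 CPM in all other cells (log2 fold change 2.85 ± 0.38 (SE), adjusted p = 8.78e-13). Stk39, which encodes the kinase SPAK that phosphorylates NCC, had a log2 fold change of 2.54 ± 0.36. Bsnd, which encodes barttin, had a log2 fold change of 2.93 ± 0.56, and the basolateral potassium channel gene Kcnj10 had 2.85 ± 0.43. Its partner Kcnj16 did not pass the test, at 588 CPM in distal convoluted tubule cells and 518 CPM in all other cells (adjusted p = 0.178). The sodium pump genes Atp1b1 and Fxyd2 rose by 0.98 ± 0.14 and 0.51 ± 0.14, although Fxyd2 turned to -0.28 with cells chosen by Slc12a3 alone. Ppp1r1a, protein phosphatase inhibitor 1, rose by 3.64 ± 0.15. Cul3, the ubiquitin ligase scaffold that removes WNK kinases, fell by 1.03 (adjusted p = 0.0467), and this call was lost with library totals or DESeq2's size factors. Klhl3, the adaptor of Cul3, had 7 UMIs in distal convoluted tubule cells and was not tested.

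In the magnesium list, 5 of 9 tested genes rose and 0 fell, of 13 listed, beside 6.73% and 19.9% of all genes. The list median was 0.51, beside -0.39 over all genes tested, but with cells chosen by Slc12a3 alone it was -0.61, beside -0.87. There 3 of 8 tested genes rose and 1 fell, beside 146 and 925 of 6761 genes. Egf, whose product stimulates magnesium uptake in this segment, had 1980.0, 2379, 2383 and 2395 CPM in distal convoluted tubule cells, against 262, 163, 118 and 142 CPM in all other cells (log2 fold change 3.32 ± 0.15 (SE), adjusted p = 7.93e-100). Trpm7, a magnesium-permeable channel with a kinase domain, had 531, 563, 909 and 509 CPM in distal convoluted tubule cells, against 132, 140.3, 141 and 138 CPM in all other cells (log2 fold change 1.67 ± 0.20 (SE), adjusted p = 5.55e-16). Cnnm2 and Slc41a3, both tied to basolateral magnesium exit, rose by 2.47 ± 0.47 and 3.29 ± 0.71, with 6 UMIs of Slc41a3 in distal convoluted tubule cells. Trpm6, the apical magnesium channel, did not pass the filter on low counts: it had 0, 128, 101 and 148 CPM in distal convoluted tubule cells, from 0, 10, 5 and 7 UMIs, against 1.73, 4.03, 2.82 and 7.84 CPM in all other cells.

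In the calcium list, 4 of 9 tested genes rose and 2 fell, beside 6.73% and 19.9% of all genes, so the falls lay near that share. Slc8a1 had 483, 563, 586 and 509 CPM in distal convoluted tubule cells, against 26.6, 103, 81.4 and 99.7 CPM in all other cells (log2 fold change 2.21 ± 0.22 (SE), adjusted p = 3.14e-21). Kl, which encodes the FGF23 co-receptor klotho, rose by 1.14 ± 0.16, Atp2b1, a plasma membrane calcium pump, by 0.88 ± 0.28 and Calm2 by 0.78 ± 0.18. Pth1r, the parathyroid hormone receptor, fell by 1.20 (adjusted p = 9.64e-08). Among genes of the aldosterone response, Scnn1a, a subunit of the epithelial sodium channel, and Kcnj1, the potassium channel ROMK, rose by 1.96 ± 0.45 and 2.92 ± 0.17. Hsd11b2, the enzyme that keeps glucocorticoids off the mineralocorticoid receptor, fell to 20.5 CPM in distal convoluted tubule cells, against 208 CPM in all other cells (log2 fold change -3.82 ± 0.47 (SE), adjusted p = 8.93e-15).

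Of the transcription factors listed for the distal nephron, 9 of 16 tested rose and 2 fell, beside 6.73% and 19.9% of all genes. Sall3 had 48.3, 89.5, 60.6 and 127 CPM in distal convoluted tubule cells, against 6.36, 7.26, 1.76 and 3.36 CPM in all other cells (log2 fold change 3.66 ± 0.53 (SE), adjusted p = 1.42e-10). Emx1, a homeobox gene, had 386, 397, 687 and 318 CPM in distal convoluted tubule cells, against 39.9, 48.4, 45.1 and 43.1 CPM in all other cells (log2 fold change 2.81 ± 0.26 (SE), adjusted p = 9.15e-25). Tfap2b, an AP-2 factor needed for distal nephron development, had 338, 281, 343 and 254 CPM in distal convoluted tubule cells, against 38.7, 36.3, 19.7 and 29.1 CPM in all other cells (log2 fold change 2.80 ± 0.33 (SE), adjusted p = 1.20e-15). Hoxd8, Mecom, Gata3, Pou3f3, Ppargc1a and Hoxb7 rose by between 0.97 and 2.85. Pax8 and Klf9 fell. Among the receptors, Gcgr, for glucagon, and Adrb1, for adrenaline, rose by 2.93 ± 0.52 and 3.07 ± 0.72, both from low counts (22 and 6 UMIs in distal convoluted tubule cells). Of 11 tested aldosterone genes 3 rose and 3 fell. Klk1 was 1 of those that rose (0.41 ± 0.14), but its log2 fold change was -0.042 without outer medulla. With the rule raised to 0.8% of UMIs, Klk1 passed edgeR's test as lower (-0.60, adjusted p = 0.0283). Scnn1g, Prss8 and Hsd11b2 fell, with 0 UMIs of Scnn1g in distal convoluted tubule cells. Of 13 tested secreted protein genes 9 rose and 2 fell, among them Fgf9, a fibroblast growth factor (2.04 ± 0.47). Counts were 2 higher and 2 lower of 6 claudin and junction genes, 2 and 3 of 6 receptors, 4 and 4 of 15 glycolysis genes, 3 and 5 of 16 fatty acid oxidation genes, 2 and 0 of 9 immediate early genes, 1 and 1 of 6 osmoprotection genes and 0 and 0 of 3 cell cycle genes. In the list of 40 nuclear-encoded respiratory chain genes, 13 rose and 1 fell with TMM factors, beside 6.73% and 19.9% of all genes. With library totals 37 rose, beside 935 of 7282 genes. When cells were chosen by Slc12a3 alone 0 rose and 6 fell, beside 146 and 925 of 6761 genes. The list median lay above that of all genes tested by 0.67, 0.69 and 0.60 in these settings, in the same order.

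**Figure D2:**
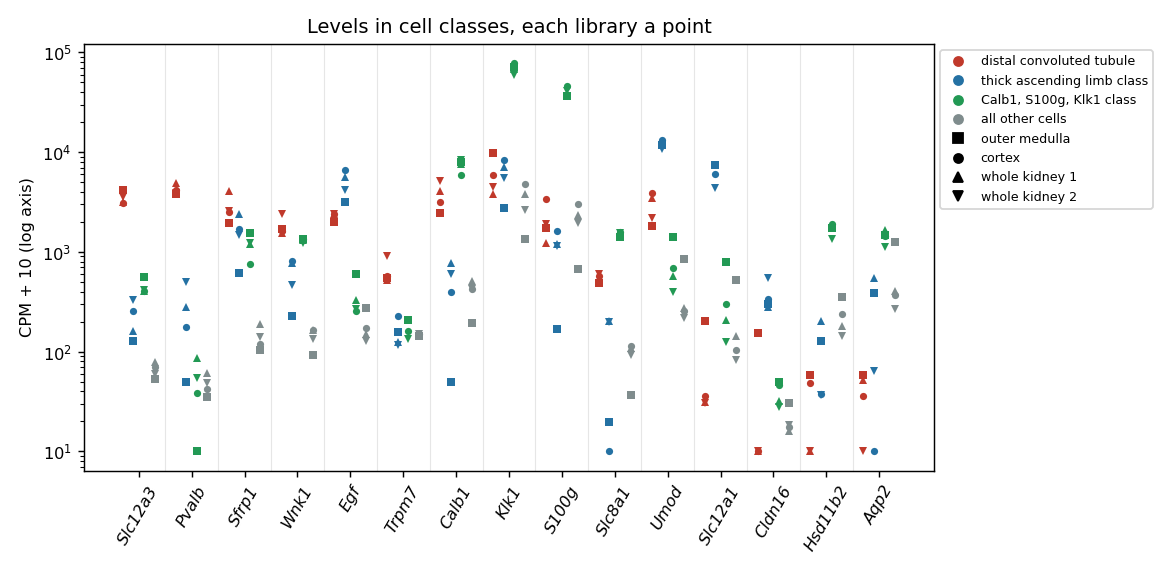
Level of 15 genes (horizontal axis) as CPM plus 10 (vertical log axis) in distal convoluted tubule cells, in the thick ascending limb class, in the class high in Calb1, S100g and Klk1, and in all other cells. Each point is 1 library, with its shape giving the library; Umod reached 1787 to 3927 CPM in distal convoluted tubule cells, where Slc12a1 was at 20.2 to 193 CPM.

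The comparison with the thick ascending limb set these cells against a class chosen for the segment before them. The limb cells were 495 cells that were not distal convoluted tubule cells and had at least 3 UMIs and 0.4% of UMIs of Slc12a1 and Umod together. Of these, 82 were in inner medulla, outside the fit. The limb cells also carried markers of later segments. Distal convoluted tubule markers made up 1.13% of their UMIs in cortex and 0.535% in outer medulla. Connecting tubule markers made up 1.02% and 0.298%, in the same order. The part of other segments' cells in this class was not tested. Of 740 genes tested in 4 libraries, 123 passed (16.6%): 56 were higher in distal convoluted tubule cells (7.57%) and 67 were lower (9.05%). By the proximal markers, free RNA made up at most 8.67% to 11.4% of distal convoluted tubule cells and at most 18.5% to 28.9% of limb cells. Proximal tubule genes such as Fbp1, Ass1, Gatm, Cyp2e1 and Acsm2 stood among the genes that were lower, and after subtraction of free RNA the counts were 39 higher and 37 lower.

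In the calcium list, Slc8a1 and Kl of 5 tested genes rose against limb cells and Pth1r fell, beside 7.57% and 9.05% of all genes. Calb1, which binds calcium in the cytoplasm, had 2463, 3147, 5151 and 4091 CPM in distal convoluted tubule cells, against 39.6, 385, 591 and 763 CPM in limb cells (log2 fold change 3.27 ± 0.22 (SE), adjusted p = 2.37e-20). Slc8a1 had 483, 563, 586 and 509 CPM in distal convoluted tubule cells, against 9.90, 0, 188 and 191 CPM in limb cells (log2 fold change 2.70 ± 0.44 (SE), adjusted p = 1.23e-06). Kl rose by 1.71 ± 0.25. Emx1 had 386, 397, 687 and 318 CPM in distal convoluted tubule cells and 9.90, 0, 161 and 38.1 CPM in limb cells (log2 fold change 3.22 ± 0.50 (SE), adjusted p = 4.01e-07), whereas Tfap2b, at 297 CPM in distal convoluted tubule cells and 363 CPM in limb cells over 4 libraries, did not pass the test (adjusted p = 0.51). Wnk1 had a log2 fold change of 1.73 ± 0.21, adjusted p = 1.14e-09, and Trpm7 rose by 1.98 ± 0.33. Clu, encoding clusterin, Ptgfr, Sgms2 (sphingomyelin synthase 2), Cavin2, Ier3, Defb1, Pgam2, Sppl2a, Hoxb5os and Isyna1 made up the rest of the named genes, with log2 fold changes between 1.72 and 3.02.

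In the sodium chloride and WNK list, Wnk1 and Fxyd2 of 7 tested list genes rose, beside 7.57% of all genes. The list median was 0.10, beside -0.022 over all genes tested. Kcnj16, Atp1b1 and Ppp1r1a did not pass the test, with log2 fold changes between -0.22 and 0.10.

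Of 3 tested claudin genes, Cldn8 rose and Cldn10 and Cldn16 fell, beside 7.57% and 9.05% of all genes. Cldn10, a claudin of the limb's paracellular sodium path, had 0, 64.0, 20.2 and 21.2 CPM in distal convoluted tubule cells, against 2594, 1154, 1370.0 and 953 CPM in limb cells (log2 fold change -5.19 ± 0.34 (SE), adjusted p = 7.40e-21). Cldn16, which the limb needs to reabsorb magnesium between cells, had 3 UMIs in distal convoluted tubule cells, all in outer medulla, against 287, 329.8, 537 and 267 CPM in limb cells (log2 fold change -4.29 ± 0.67 (SE), adjusted p = 6.54e-07). Cldn8, a claudin of the aldosterone-sensitive nephron, rose by 1.41 ± 0.36, but this call was lost after free RNA was subtracted (1.20, adjusted p = 0.0534), without whole kidney 2 (1.04, adjusted p = 0.0914) and with DESeq2 (1.49, adjusted p = 0.434). Car15, a membrane carbonic anhydrase, had 0 UMIs in distal convoluted tubule cells and 190 UMIs in limb cells, or at least 61.7-fold lower at a floor of 3 counts over the group. Egf had 1980.0, 2379, 2383 and 2395 CPM in distal convoluted tubule cells, against 3139, 6569, 4191 and 5604 CPM in limb cells (log2 fold change -1.13 ± 0.14 (SE), adjusted p = 3.53e-09). The groups did not overlap for Egf, but the share of all tested genes without overlap was not counted. Wfdc2 and Spp1, which encodes osteopontin, fell by 1.54 and 0.54 (adjusted p = 5.42e-09 and 0.0062). Pth1r, Car2, Ttr, Id2, Cyba, Sult1d1, Neat1 and the inositol transporter gene Slc5a3 fell as well, with log2 fold changes between -3.35 and -1.31.

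Umod, which encodes uromodulin, helped choose the limb cells and was not tested there, and its presence in distal convoluted tubule cells is described by counts. It had 37, 307, 107 and 162 UMIs in distal convoluted tubule cells of outer medulla, cortex, whole kidney 2 and whole kidney 1, where Slc12a1 had 4, 2, 1 and 1 UMIs. Summed over these libraries, Umod had 76.6 UMIs per UMI of Slc12a1 in distal convoluted tubule cells (613 and 8 UMIs; exact 95% interval 38.6 to 178), 1.80 in limb cells (2388 and 1325 UMIs) and 1.95 in barcodes with under 100 genes (2514 and 1286 UMIs). A UMI of Umod was seen in 59.9% of 267 distal convoluted tubule cells and in 3.31% of 6495 proximal tubule cells, at a median depth of 579 and 569 UMIs. The limb cells were chosen by Umod and Slc12a1, and the interval pools 4 libraries and covers counting error only. In outer medulla alone there were 37 UMIs of Umod and 4 of Slc12a1.

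The last segment comparison set distal convoluted tubule cells against 617 cells, outside the rule, in which Calb1, S100g and Klk1 together had at least 5 UMIs and 2% of UMIs. The connecting tubule is the segment after the distal convoluted tubule, but this class also held genes of principal and intercalated cells (Aqp2 at 1389 CPM and Atp6v1g3 at 639 CPM over 4 libraries), so it is called by its 3 genes. Of the 617 cells, 3 were in inner medulla, outside the fit. Of 1142 genes tested, 263 passed (23%): 125 were higher in distal convoluted tubule cells (10.9%) and 138 were lower (12.1%). With library totals these counts were 206 and 99. Free RNA made up at most 10.2% to 31.8% of this class by the proximal markers.

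Distal convoluted tubule cells were higher in Wfdc15b, at 9176, 9939, 7110.0 and 7779 CPM in outer medulla, cortex, whole kidney 2 and whole kidney 1, against 941, 450.2, 525 and 788 CPM in the Calb1, S100g and Klk1 class (log2 fold change 3.58 ± 0.13 (SE), adjusted p = 1.54e-142). Egf had 1980.0, 2379, 2383 and 2395 CPM in distal convoluted tubule cells, against 588, 243, 258 and 317 CPM in the Calb1, S100g and Klk1 class (log2 fold change 2.79 ± 0.16 (SE), adjusted p = 4.57e-62). Umod was tested here, with 1787, 3927, 2161 and 3434 CPM in distal convoluted tubule cells and 1412, 686, 383 and 558 CPM in the Calb1, S100g and Klk1 class (log2 fold change 2.05 ± 0.14 (SE), adjusted p = 3.25e-45). Ckb, Pigr (the receptor that carries immunoglobulin A into the lumen), Tfrc (the transferrin receptor), Gpx6 and Uroc1 rose by between 2.3 and 3.27. Abca13, Ppp1r1a, Trpm7, Tdrd3, Cwh43, Mfsd4a and Ptgfr rose by between 1.61 and 2.03. All 4 tested magnesium genes rose, namely Egf, Trpm7, Fxyd2 and Pcbd1, beside 10.9% of all genes.

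Wnk1 did not pass the test, although every value in distal convoluted tubule cells lay above every value in the other class, at 1690.2, 1625, 2363 and 1526 CPM in distal convoluted tubule cells and 1334, 1322, 1210.3 and 1291 CPM in the other class (log2 fold change 0.31 ± 0.13 (SE), adjusted p = 0.0841). The share of all tested genes set apart in this way was not counted. Of 10 tested genes of the sodium chloride list 3 rose, among them Fxyd2 and Ppp1r1a, beside 10.9% of all genes. Emx1, at 450.0 CPM in distal convoluted tubule cells and 319.6 CPM in the other class, did not pass the test (adjusted p = 0.466). Of 39 tested respiratory chain genes 22 rose and 0 fell, beside 10.9% and 12.1% of all genes (median 0.42, beside -0.0050 over all genes). With cells chosen by Slc12a3 alone 2 of 38 of these genes rose, beside 25 of 337 genes in all. After free RNA was subtracted 17 of 39 rose, beside 84 of 938 genes.

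In the aldosterone list, 4 of 5 tested genes were lower in distal convoluted tubule cells and 0 were higher, beside 12.1% and 10.9% of all genes. Hsd11b2 had 48.3, 38.4, 0 and 0 CPM in distal convoluted tubule cells, against 1726, 1901, 1335 and 1706 CPM in the other class (log2 fold change -6.44 ± 0.32 (SE), adjusted p = 8.14e-85). The sodium channel subunit genes Scnn1g and Scnn1b had 0 and 8 UMIs in distal convoluted tubule cells. Scnn1g was at least 12.4-fold lower at a floor of 3 counts over the group, and Scnn1b fell by 2.69 (adjusted p = 6.39e-08). Scnn1a fell by 0.96 (adjusted p = 0.0268). The calcium genes Slc8a1, Kl, Vdr and Pth1r were lower, with log2 fold changes between -1.67 and -0.86. Slc8a1 stood in between, at 483, 563, 586 and 509 CPM in distal convoluted tubule cells, 1412, 1565, 1522 and 1553 CPM in the Calb1, S100g and Klk1 class and 9.90, 0, 188 and 191 CPM in limb cells. Atp6v1g3, Car15, Kcne1 and Apela had 0 UMIs in distal convoluted tubule cells and were at least 14.5-fold lower each. Aqp2, Rhbg, Cav2, Aqp3, Klk1b3, Spink8, Car2, Klk1b5 and Fxyd4 fell, with log2 fold changes between -5.87 and -3.85. Reads of Klk1b3 and Klk1b5, near copies of Klk1, could have been split between these genes.

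**Figure D3:**
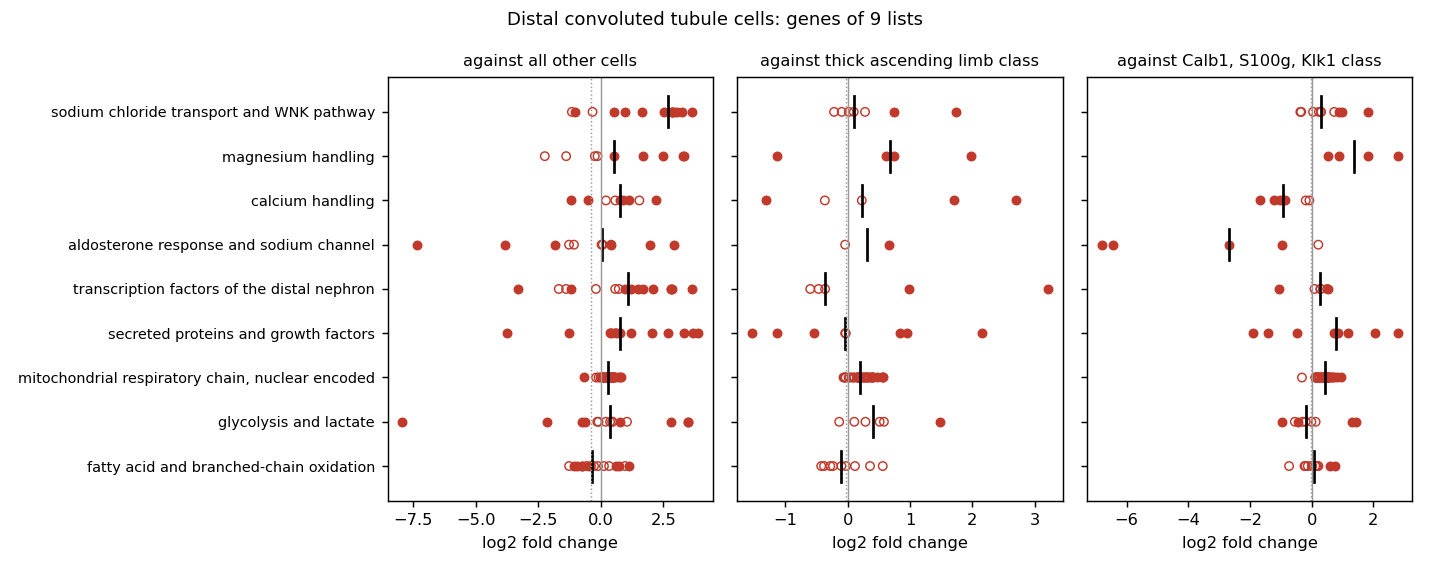
Log2 fold change (horizontal axis) of each tested gene of 9 gene lists (rows) in distal convoluted tubule cells against all other cells, the thick ascending limb class and the class high in Calb1, S100g and Klk1. Filled points passed an adjusted p under 0.05, open points did not, black bars are list medians and the dotted line is the median of all genes tested; the sodium chloride list has a median of 2.69 in the left panel and 0.10 in the middle panel.

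Within distal convoluted tubule cells, most Calb1 UMIs were in cells that also had Pvalb, and most S100g UMIs were in cells without it, except in outer medulla. Of 268 cells, 77 had Pvalb without S100g or Calb1, 157 had Pvalb with S100g or Calb1, 24 had S100g or Calb1 without Pvalb and 10 had none of the 3. In cells without Pvalb, S100g had 578, 36346, 17942 and 10366 CPM in outer medulla, cortex, whole kidney 2 and whole kidney 1, against 1972, 487, 398 and 547 CPM in cells with Pvalb. Outer medulla, with 7 cells without Pvalb and 2 S100g UMIs in them, had the reverse order. Klk1, tissue kallikrein of the connecting tubule, had 13861, 47186, 31162 and 18902 CPM in cells without Pvalb, against 8989, 2323, 1966 and 2711 CPM in cells with Pvalb. Calb1 had 2021, 7333, 8263 and 10366 CPM in cells without Pvalb, against 2552, 2782, 4860 and 3622 CPM in cells with Pvalb. The rule needs 3 UMIs of Slc12a3 where Pvalb is missing, so cells without Pvalb were also chosen for Slc12a3.

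A UMI of S100g alone says little about a cell here. It was seen in 22.5% (17.6% to 28.0%) of 267 distal convoluted tubule cells and in 18.4% (17.5% to 19.4%) of 6495 cells called proximal by their markers, at a median depth of 579 and 569 UMIs. With each cell thinned to 300 UMIs, which left out 24 and 505 cells, these shares were 11.9% and 9.07%. Calb1 was seen in 61.4% of distal convoluted tubule cells and 2.17% of proximal tubule cells, and in 46.9% and 1.02% after thinning. In barcodes with under 100 genes S100g had 1634, 5278, 4273 and 4627 CPM and Calb1 had 383, 808, 854 and 1070 CPM in outer medulla, cortex, whole kidney 2 and whole kidney 1.

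Strict late cells (S100g or Calb1 without Pvalb) numbered 3, 9, 5 and 7 in outer medulla, cortex, whole kidney 2 and whole kidney 1, too few for the test as designed. Cells were therefore called late or early by the larger of S100g plus Calb1 and Pvalb, which gave 80 late and 158 early cells and left out 30 with a tie or none. Cortex, whole kidney 2 and whole kidney 1 had 24, 25 and 24 late cells and 60, 37 and 40 early cells and were compared. Outer medulla, with 7 late and 21 early cells, was not in the fit. Of 380 genes tested, 14 passed (3.68%): 11 were higher in late cells (2.89%) and 3 were lower (0.789%). With library totals, which move the median over all genes by -0.11, 7 were higher and 4 were lower. DESeq2 called 3 genes.

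Late cells were high in Klk1, Clu and 2 of 5 tested calcium genes, Slc8a1 and Kl, beside 2.89% of all genes. Klk1 had 18066, 8547 and 7550.5 CPM in late cells of cortex, whole kidney 2 and whole kidney 1, against 1148, 1691 and 1503 CPM in early cells (log2 fold change 3.09 ± 0.24 (SE), adjusted p = 6.91e-10). Few cells carried much of this Klk1. Among all distal convoluted tubule cells, 3 cells held 45.1%, 59.3% and 44.8% of its UMIs in these libraries. Slc8a1 had 1382, 1257 and 1039.6 CPM in late cells, against 214, 157 and 188 CPM in early cells (log2 fold change 2.79 ± 0.31 (SE), adjusted p = 7.54e-07). Kl had 1621, 1609 and 2681 CPM in late cells, against 564, 668 and 601 CPM in early cells (log2 fold change 1.77 ± 0.23 (SE), adjusted p = 5.40e-06). Clu had 3432, 3922 and 4104 CPM in late cells, against 1342, 1494 and 977 CPM in early cells (log2 fold change 1.68 ± 0.20 (SE), adjusted p = 1.83e-06). For these 4 genes and the 7 others that were higher, every late value lay above every early value. The test had already picked these genes, and the share of all tested genes without overlap was not counted. Outer medulla, outside the fit, had 37339 CPM of Klk1 in late cells and 1206 CPM in early cells, with 106 of its 203 Klk1 UMIs in 1 cell. It had 1236 CPM of Slc8a1 in late cells and 302 CPM in early cells. Klk1, Slc8a1 and Clu were the genes that DESeq2 called too.

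Genes also higher in late cells were Sgms2 (1.29 ± 0.24, adjusted p = 0.00146), Acadsb, an acyl-CoA dehydrogenase (1.21 ± 0.32, adjusted p = 0.0275), Kcnj16 (1.18 ± 0.30, adjusted p = 0.0172), Hsp90ab1 (0.95 ± 0.22, adjusted p = 0.00968), Spp1 (0.90 ± 0.19, adjusted p = 0.00527) and Nudt4 (0.73 ± 0.18, adjusted p = 0.013), given as log2 fold change ± SE. Fxyd2, the gamma subunit of the sodium pump, had 11631, 12519 and 11052 CPM in late cells, against 19865, 18478 and 18568 CPM in early cells (log2 fold change -0.58 ± 0.12 (SE), adjusted p = 0.00527). Fth1, the heavy chain of ferritin, had 10153, 9703 and 9028 CPM in late cells, against 22511, 13603 and 13418 CPM in early cells (log2 fold change -0.63 ± 0.14 (SE), adjusted p = 0.00773). Ndufb6, a subunit of respiratory complex I, fell by 0.94 (adjusted p = 0.0163). Of 37 tested respiratory chain genes of the list, 0 passed the test, with an unadjusted p under 0.05 in 52 of all 380 genes and a list median of -0.20 beside -0.0066.

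Sfrp1, Umod, Egf, Wnk1, Trpm7 and Defb1 did not pass the test between late and early cells. Sfrp1 had 2622, 3117 and 5745 CPM in late cells and 2393, 2319.6 and 3119.7 CPM in early cells (log2 fold change 0.61 ± 0.19 (SE), adjusted p = 0.0795). Umod had 2526, 1810.0 and 4651 CPM in late cells and 4572, 2437 and 2706 CPM in early cells (log2 fold change -0.05 ± 0.23 (SE), adjusted p = 0.953), so the libraries did not agree in direction. Egf, Wnk1, Trpm7 and Defb1 had adjusted p values between 0.128 and 0.782. By the proximal markers, late cells read as at most 9.27%, 6.99% and 13.4% free RNA in cortex, whole kidney 2 and whole kidney 1, and early cells as at most 8.77%, 12.3% and 9.55%. When each cell was thinned to 300 UMIs before it was called, 2 libraries kept enough cells and 0 of 199 genes passed the test, with Klk1, Clu and Kl each at an adjusted p of 0.0564 and Slc8a1 at 0.109 (edgeR). Their log2 fold changes there were 4.12, 2.02, 3.81 and 2.73. Without cortex, 9 genes passed.

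**Figure D4:**
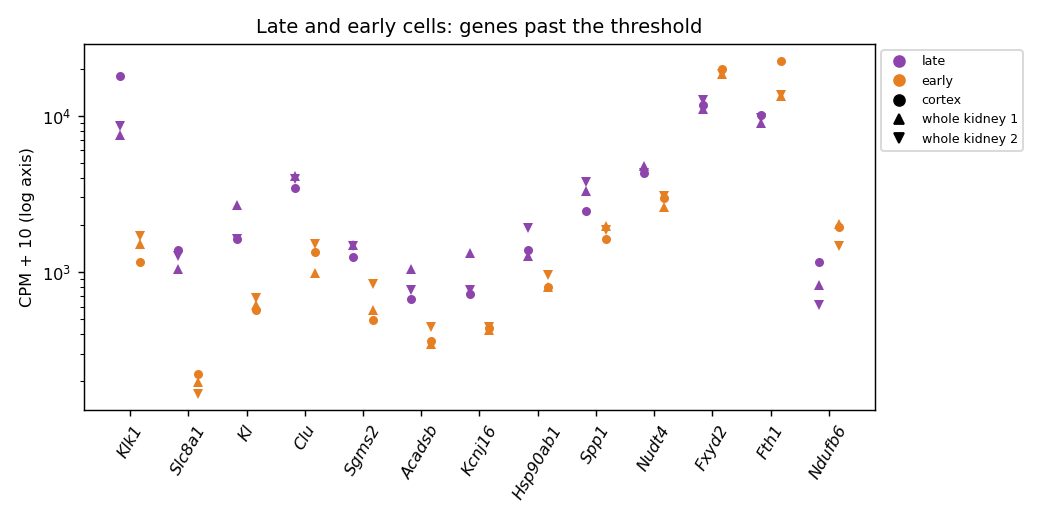
Level of 13 of the 14 genes past the threshold (horizontal axis) as CPM plus 10 (vertical log axis) in late and early distal convoluted tubule cells of 3 libraries, each library a point with its own shape. The 10 genes plotted that were higher have every late point above every early point, and Fxyd2, Fth1 and Ndufb6 have every late point below.

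Outer medulla and cortex did not differ in the split of strict early and late cells beyond counting error. Early cells were 78.6% (49.2% to 95.3%) of 14 strict early and late cells in outer medulla and 75.0% (57.8% to 87.9%) of 36 in cortex, a difference of 3.57 percentage points (-28.5 to 27.6). Whole kidney gave 77.3% in replicate 2 and 75.9% in replicate 1. By the larger of the genes, early cells were 75.0% of 28 cells in outer medulla and 71.4% of 84 cells in cortex.

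For gene levels, outer medulla and cortex were compared by size alone, since each has 1 library. A gene passed this size rule with 200 CPM and 20 UMIs where it was higher, a log2 ratio of 1 or more either way after 10 CPM were added, and an exact interval that left out equality. Between outer medulla and cortex, 24 of 485 genes did so (4.95%), 3 of them higher (0.619%) and 21 lower (4.33%) in outer medulla. The floor of 20 UMIs asked for a higher CPM in outer medulla, with 20707 UMIs, than in cortex, with 78175 UMIs. Genes could therefore pass more easily as lower in outer medulla, and the part of depth in this split was not tested. Between whole kidney 2 and whole kidney 1, 26 of 479 genes did so (5.43%), 14 of them higher (2.92%) and 12 lower (2.51%). By library totals, the count between regions was therefore no larger than that between libraries of the same tissue. The pairs are not alike in depth, since the whole kidney libraries had 49508 and 47180 UMIs in these cells. Of the 24 genes, 11 were ribosomal protein genes, all lower in outer medulla, and the median of all genes that could pass was -0.33 on the log2 scale. With TMM factors, which shift the ratio by a further -0.39, 0 genes were higher and 78 were lower. The whole kidney pair, where these factors shift the ratio by -0.040, was not recounted with them.

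Umod had 1787 CPM in outer medulla, from 37 UMIs, and 3927 CPM in cortex, from 307 UMIs, and was 2.20-fold lower (1.56 to 3.18) in outer medulla. All other cells had the reverse order, with 833 CPM in outer medulla and 244 CPM in cortex. Whole kidney 2 had 2161 CPM and whole kidney 1 had 3434 CPM in distal convoluted tubule cells, a ratio of 0.629 (0.488 to 0.808), so libraries of the same tissue also differed. Pth1r had 1 UMI in outer medulla and 26 UMIs in cortex (48.3 and 333 CPM). Cyp2j6 and Tnfaip2 had 0 UMIs in outer medulla and 24 and 22 UMIs in cortex. Chchd3, Cnn3, Bsg, Uqcrc2 and Skp1a were lower in outer medulla with ratios between 0.222 and 0.472. Laptm4a, a lysosomal membrane protein gene, had 25 UMIs in outer medulla and 39 UMIs in cortex (1207 and 499 CPM, ratio 2.42, interval 1.40 to 4.10). Ndufs4, of respiratory complex I, had a ratio of 2.29.

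For Wnk1, Egf and Sfrp1 the interval of the ratio between regions held equality. Wnk1 had 1690 CPM in outer medulla and 1625 CPM in cortex (ratio 1.04, interval 0.694 to 1.52), Egf had 1980.01 CPM in outer medulla and 2379 CPM in cortex (0.832, interval 0.578 to 1.17) and Sfrp1 had 1932 CPM in outer medulla and 2482 CPM in cortex (0.778, interval 0.539 to 1.10). These intervals also allow differences as large as their bounds. Of 15 measured genes of the sodium chloride list, 9 were higher in value in outer medulla, 3 with an interval above equality and 1 below it. Klk1 had 9803 CPM in outer medulla and 5923 CPM in cortex (ratio 1.66, interval 1.40 to 1.96), but 106 of its 203 UMIs in outer medulla came from 1 cell.

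**Figure D5:**
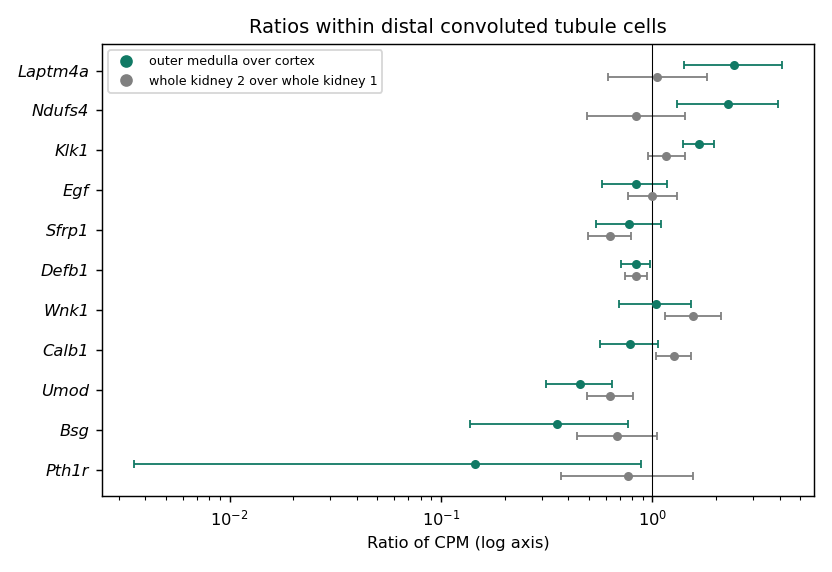
Ratio of CPM (horizontal log axis) within distal convoluted tubule cells for 11 genes (rows), outer medulla over cortex and whole kidney 2 over whole kidney 1. Points are ratios and lines are exact 95% intervals for counting error; Umod lies at 0.455 for the regions and 0.629 for the whole kidney libraries.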

How the data were processed

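The values are counts: in each deposited table a cell gives the whole number of UMIs counted for a gene in a barcode. The submitters' processing notes name genome build mm9 and Seurat 2.3.1, while no aligner is named in them. The 5 deposited tables held 869732 to 4169677 UMIs, every barcode had at least 50 genes, and 0 mitochondrially encoded genes were listed. The members and gene lists were chosen with earlier results of these data known.

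Counts were summed per class and library. A library entered a fit with at least 10 cells and 3000 UMIs in each class. edgeR 4.0.16 (quasi-likelihood test, TMM factors, filterByExpr, library as a block, two-sided, Benjamini-Hochberg adjustment over all genes tested) was the test in R 4.3.3, and DESeq2 1.42.0 an alternative. Genes used by a cell rule were left out of that test. The filter passes genes high in either class, so counts over list genes are descriptions. The fits were tested on simulated data. Shares carry exact Clopper-Pearson and ratios exact conditional intervals at 95%, which cover counting error only. Free RNA was read from proximal tubule markers in barcodes with under 100 genes.

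Named genes were up to 15 per direction with the largest log2 fold change among those with an adjusted p under 0.05, at least 100 CPM in the higher class and 1 direction in every library, without ribosomal protein and haemoglobin genes, plus list genes of at least 20 CPM; between regions, up to 12 per direction past the size rule. Scrublet in scanpy 1.11.5 marked 22 of 12121 cells (0.182%), too few to have worked, so doublets were kept, and an alternative left out the 5% highest scores. The early and late test was fixed on stricter classes that left under 10 late cells in every library, so the split by the larger of the marker genes is reported. A few genes are not reported here by name; counts over all genes include them.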

Additional observations from a re-analysis of the deposited data

Results flagged for a closer look

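Klk1 moved in opposite directions between outer medulla and cortex when distal convoluted tubule cells were set against thick ascending limb cells. In outer medulla it was 3.56-fold the limb level (interval 2.96 to 4.28; 203 UMIs in distal convoluted tubule cells and 278 UMIs in limb cells). In cortex it was 0.718-fold the limb level (0.620 to 0.833; 463 and 300 UMIs). The intervals cover counting error within 1 library per region, and the difference between the regions was not tested. In outer medulla, 3 cells held 73.9% of the Klk1 UMIs of distal convoluted tubule cells, and 106 UMIs came from 1 cell; in cortex, 3 cells held 45.1%. Limb cells had 2753 CPM of Klk1 in outer medulla and 8245 CPM in cortex, and barcodes with under 100 genes had 2977 CPM in outer medulla and 5874 CPM in cortex. Over all 4 libraries, Klk1 did not pass the test against limb cells (log2 fold change -0.04 ± 0.19 (SE), adjusted p = 0.928). The parts of free RNA and of other segments' cells among the limb cells in this difference were not tested.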

How the results depend on the processing

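No paired analysis was possible because the regions share fewer than 2 replicate numbers; each library was its own block, and no summary count left its limits without that block. Of 78 recomputed summary values, 52 stayed within limits. Against all other cells (1938 genes), the count was 1276 with DESeq2, 1071 with Slc12a3 alone, 1077 at 0.8% of UMIs, and 1224 (without cortex) to 1779 with a library left out (1269 without whole kidney 2). Against limb cells (123 genes) it was 49, 34 and 55 under the same settings, 67 at 300 genes, 76 with free RNA subtracted and 87 to 113 with a library left out. Against the Calb1, S100g and Klk1 class (263 genes) it was 97, 59 and 91, 165 with free RNA subtracted, and 109 (without cortex) to 302 with a library left out (160 without whole kidney 1). Late against early (14 genes) gave 3 with DESeq2, 22 at 300 genes, 4 at 0.8%, 0 thinned, 6 with late as any S100g or Calb1 UMI (chosen after seeing the data) and 9 (without cortex) to 15 with a library left out. Between regions (24 genes) it was 78 with TMM factors, 12 in early cells, 8 at 0.8% and 10 with Slc12a3 alone. The cause of these moves was not tested beyond the fewer cells under the stricter rules. Of 3429 gene values, 18 turned. With Slc12a3 alone, Atp5a1 (-0.050), Atp5e (-0.082), Atp5h (-0.10), Atp5j (-0.020), Atp5k (-0.17), Atp5o (-0.32), Cox6c (-0.26), Echs1 (-0.17), Fxyd2 (-0.28), Ndufa1 (-0.16) and Uqcrq (-0.25) turned against all other cells, and Spp1 (0.15) against limb cells. At 0.8%, Atp5o (-0.070), Hadha (-0.29) and Klk1 (-0.60) turned, with library totals Etfa (0.041), with a library left out Klk1 (-0.042 without outer medulla, up to 0.72), and in early cells only Uqcrc2 between regions (0.45). Not run, for want of cells: the strict split, the 1% split, Slc12a3 alone and S100g against Pvalb for late cells. Outer medulla had 35 cells and 20707 UMIs.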
